A study of Mus musculus with 6 samples.

Results

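The intronic BAZ2A peaks in unique sequence were 777 of the 3127 peaks that iCLIP gave for BAZ2A, a chromatin protein of the ISWI remodelling complex NoRC that binds RNA, in mouse embryonic stem cells. A peak was taken when it was longer than 18 nt, when its midpoint lay inside the gene named in the list but in none of that gene's annotated exons, when under 50% of its bases were soft-masked as repeat in the mouse genome (mm10), and when it overlapped no snoRNA, scaRNA or snRNA gene on either strand. Of 1539 intronic peaks in the list, 204 were too short, 56 longer ones lay at such a small RNA gene, and 502 were at least 50% repeat. The 777 peaks lay in 647 host genes, of which 580 (89.6%) were protein-coding.

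The cells were E14 embryonic stem cells kept in N2B27 medium with LIF and the 2i inhibitors, in which the endogenous BAZ2A carried FLAG and HA tags. The anti-FLAG antibody was used on nuclear lysate of UV-crosslinked cells (3 libraries) and of cells without crosslinking (3 background libraries), and the crosslinked and background library of a replicate were pooled for sequencing. The study's methods give as the reason for pooling that no amplified product of the uncrosslinked samples was seen on a gel. All 6 libraries carried the same tagged allele, and no untagged cells enter the peak list. The deposited list pools the 6 libraries, so no value below has a replicate error or a read depth, and every test compares kinds of peak within 1 list.

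Introns are transcribed with the rest of a gene and cut out by the spliceosome, which recognises the 5′ splice site, the branch point, a tract of C and U, and the AG at the 3′ splice site. Because introns are removed and degraded in the nucleus, a crosslink within one places the protein on unspliced RNA, on an excised intron, or on another RNA made from the same bases. iCLIP maps such contacts because reverse transcription tends to stop at the crosslinked base, and the caller adds to each peak a score on its own scale, with no unit, and a single position inside the peak, here called the mode.

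Before the results, 2 properties of the list need to be stated. First, 126 members lay within a second gene on the opposite strand, and for 78 of these (61.9%) the list held a peak with exactly the same start and end on that strand. The scores of 77 of these pairs were within 10% of each other, with a median difference of 1.46%, and 62 pairs shared the mode position, so the strand of the crosslinked RNA cannot be told for them. An exonic peak in unique sequence was among the partners for 47 and another member for 32. Peaks are listed under genes, so this check could not be made for the 651 members in no gene on the opposite strand. Second, 51 members shared interval and strand with another member because the interval was listed under more than 1 gene, which leaves 743 distinct intervals and strands.

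The sequences of the highest scored members are shown first, because 9 of the 10 highest scored had another copy in the genome or resembled another member. Capitals mark the bases that aligned to the closest other member at a different locus, on either strand, and members without such an alignment are in lower case.
Jarid2: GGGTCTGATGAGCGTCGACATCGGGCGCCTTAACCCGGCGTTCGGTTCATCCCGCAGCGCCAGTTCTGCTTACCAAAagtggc
Gm19951: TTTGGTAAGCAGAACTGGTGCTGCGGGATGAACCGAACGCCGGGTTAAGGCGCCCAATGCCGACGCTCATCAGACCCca
Kpna1: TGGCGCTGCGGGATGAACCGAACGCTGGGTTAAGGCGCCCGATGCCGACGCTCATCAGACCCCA
Atf2: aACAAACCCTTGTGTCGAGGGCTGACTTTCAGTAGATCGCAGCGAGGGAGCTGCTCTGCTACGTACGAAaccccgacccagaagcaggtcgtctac
Itga9: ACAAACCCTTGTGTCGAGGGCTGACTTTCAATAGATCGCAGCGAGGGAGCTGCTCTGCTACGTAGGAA
Fgfr2: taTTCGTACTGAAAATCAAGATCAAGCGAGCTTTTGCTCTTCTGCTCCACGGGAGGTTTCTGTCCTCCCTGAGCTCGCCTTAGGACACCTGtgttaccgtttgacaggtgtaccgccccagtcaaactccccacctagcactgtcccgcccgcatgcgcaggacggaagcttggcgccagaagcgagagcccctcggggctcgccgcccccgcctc
Camk1d: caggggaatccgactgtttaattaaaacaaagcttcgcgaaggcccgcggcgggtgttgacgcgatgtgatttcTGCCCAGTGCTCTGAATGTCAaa
Mpnd: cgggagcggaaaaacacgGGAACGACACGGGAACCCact
Il1rapl1: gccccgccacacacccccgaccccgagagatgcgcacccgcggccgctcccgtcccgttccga

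The Jarid2 peak (chr13:44869597-44869679, plus strand, intron 9 of 21) had the highest score of the whole list, 1000. Jarid2 is an accessory subunit of the Polycomb repressive complex PRC2. Its 83 bases aligned over 77 bases at 96.1% identity to the opposite strand of the Gm19951 peak (chr12:99645590-99645668, score 107). The 64-nt peak in intron 1 of Kpna1 (chr16:35981587-35981650, score 89), the gene of an importin alpha, aligned over its whole length to the Gm19951 peak at 95.3% identity. These 3 peaks and those in Tmtc2, Gm15564 and D130009I18Rik (scores of 63.3, 46.2 and 4.79) formed 1 group of related sequences, in which scores ran from 4.79 to 1000. The Gm15564 peak lay inside the Kpna1 one on the opposite strand.

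The peaks of Atf2 (chr2:73867938-73868033, score 190), a bZIP transcription factor, and Itga9 (chr9:118674953-118675020, score 97.4), an integrin subunit, shared 68 bases at 97.1% identity. With Peak1, Zfp791, Gm5577 and Luzp1 they made another group of 6, whose lowest score was 4.31. The 216-nt peak of Fgfr2, an FGF receptor (chr7:130834421-130834636, score 266), lay in intron 2, which spans 2815493 nt. As annotated, Fgfr2 spans 2960900 bases and runs over other genes, among them Plekha1 and Fam53b. Its peak matched the Gphn peak (score 59) over 89 bases at 98.9% identity in the opposite orientation. Camk1d (chr2:5379269-5379365, score 757), a calcium-dependent kinase, shared only 21 bases with a short Gm48099 peak, and Mpnd (chr17:56005868-56005906, score 74) only 18 with Taco1. Il1rapl1 (chrX:87238360-87238422, score 158), a synaptic adhesion protein gene, had 77.8% GC and no alignment of this kind. The second Kpna1 peak (chr16:35981693-35981764, score 93) had 2 other copies in the genome but no related member.

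Of the 777 members, 86 (11.1%) had at least 1 other match in mm10 that covered 90% of the peak at 90% identity, with a median of 3 copies and at most 198. This share was 13.1% (176 of 1347) among exonic peaks of the same length and masking limits, and the difference did not pass the two-sided Fisher's exact test (adjusted exact p = 0.296). By the same test, a match to ribosomal, transfer, mitochondrial or other structural RNA over at least 50% of the peak was found for 21 members (2.7%), against 13 exonic peaks (0.965%, adjusted exact p = 0.00767). The difference did not pass among peaks with no masked base (1.88 against 0.803%, adjusted exact p = 0.143). Intronic repeat peaks had such a match in 259 of 502 cases (51.6%), but repeat masking covers many of these RNAs, so the masking limit bears on that difference and it is not a test. Transfer RNAs gave 10 of the 21, of which 8 ran against the peak's strand. They included the peaks in Gm15738 (score 31.9, 72 bases identical to a threonine tRNA) and Hdgfl2 (score 13.9, 40 bases identical to a glutamate tRNA), both opposite an annotated tRNA gene. The peak under Ccnb1ip1 (score 54) was identical over all 62 bases to Rpph1, the RNA of RNase P, whose annotated gene it overlapped on the same strand. The 6 rRNA matches included Tor1aip2 and Gnb1l (scores of 24.7 and 24.4), and the reference used here holds 28S rRNA only in part. The members, the highest scored ones included, were therefore not compared with all of 28S rRNA, and 21 is a minimum.

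Copies, a related member or a structural RNA match marked 102 members, and 675 had none of these. The 102 held 53.7% of the summed score of all members, and 18 of the 20 highest members were among them. Their median score was 4.78, against 3.64 for the other 675. Whether reads that map to several copies set these scores was not tested.

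**Figure D1:**
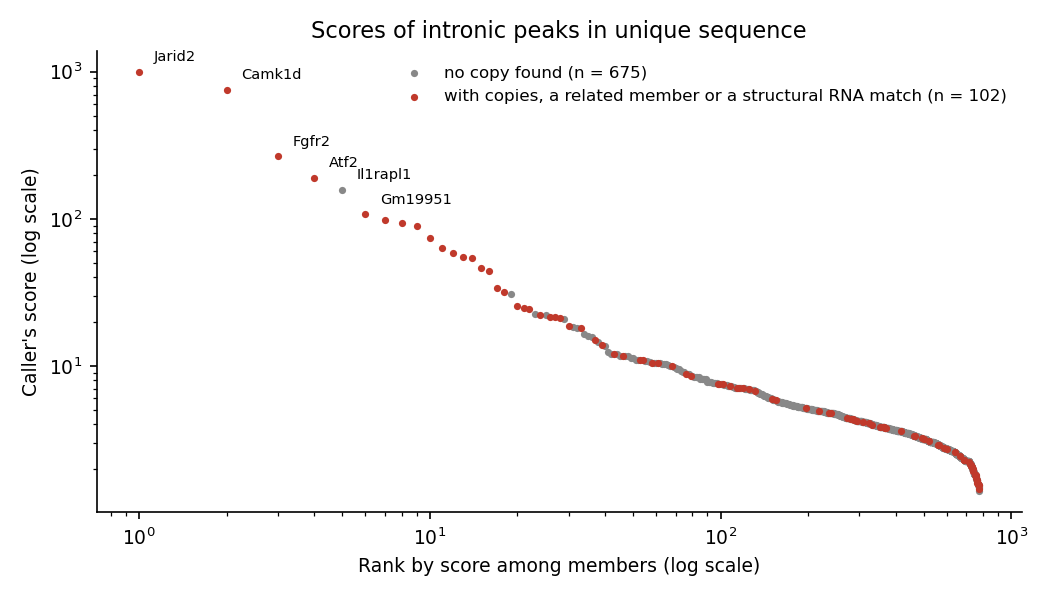
Score of each of the 777 members against its rank, both on log scales, with the 102 members that had another copy, a related member or a structural RNA match in red and the other 675 in grey. Red points make up 18 of the first 20 ranks, and grey points make up most of the long tail.

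Most members had low scores. Their median was 3.7 with quartiles of 2.78 and 5.17, the lowest was 1.4, and 66 scored above 10. Above the median score of the whole list (4.28) lay 290 members (37.3%, 95% Wilson interval 34 to 40.8%). The share was 50.4% for intronic repeat peaks (253 of 502, adjusted exact p = 1.73e-05) and 60.4% for exonic peaks (813 of 1347, adjusted exact p = 3.12e-23, two-sided Fisher's exact tests). Members were 19 to 301 nt long with a median of 60 nt. More of them were above the list's median length of 58 nt than among repeat peaks (52.3% against 37.3%, adjusted exact p = 9e-07) and fewer than among exonic peaks (64.5%, adjusted exact p = 2.02e-07). With no masked base the first difference did not pass (43.3 against 37.3%, adjusted exact p = 0.101), and in the top-scored 50% of the list the second did not (81.4 against 86.1%, adjusted exact p = 0.127). The p-values of all 49 such tests were adjusted together, and 13 of 25 features tested against intronic repeat peaks (52%) and 11 of 24 against exonic peaks (45.8%) passed 0.05, including those given without a test because the rule bears on them. Peaks of 1 gene share their transcript, so intervals and tests over peaks cover counting error only.

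At the edge of the rule, 49 members were 40 to under 50% masked, with a median score of 3.58, and 42 intronic repeat peaks were 50 to under 60% masked, with a median of 4.03. The highest masked share of a member was 49.5%, while 533 members (68.6%) had no masked base. At the length limit, 25 members were 19 or 20 nt long.

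**Figure D2:**
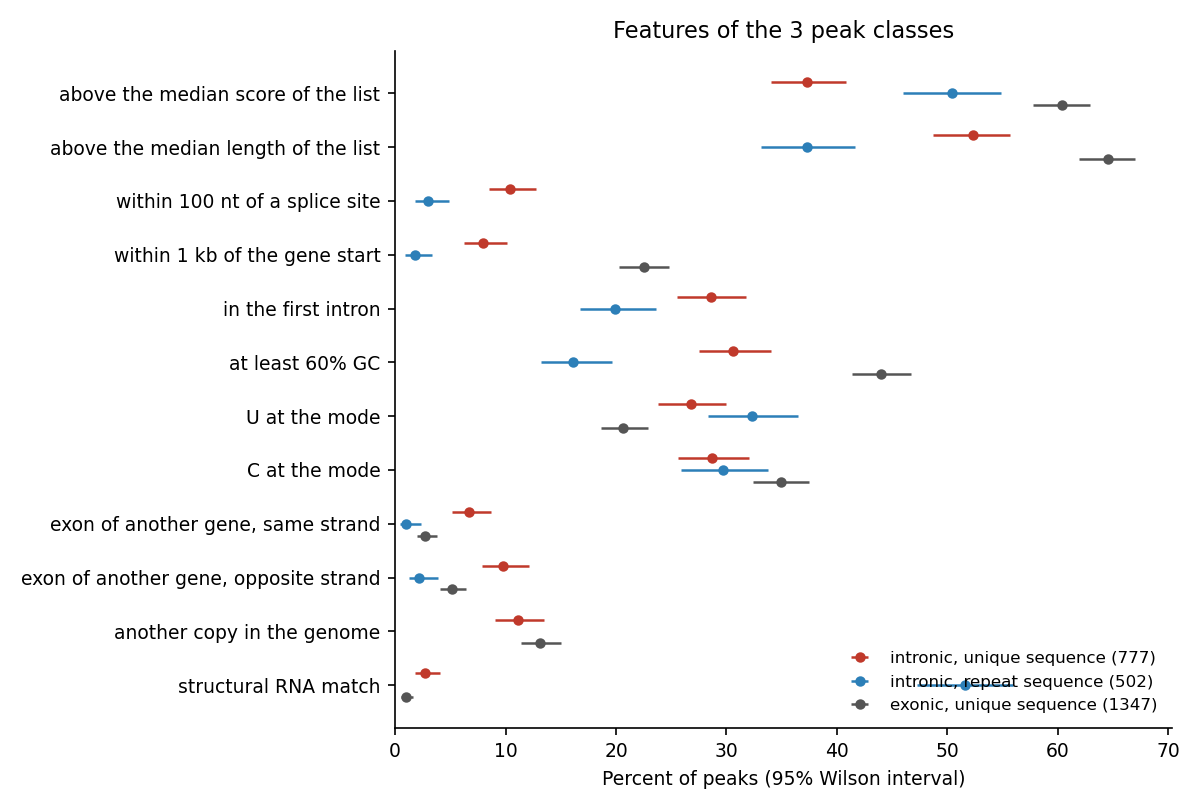
Percent of peaks with each feature (points) and its 95% Wilson interval (lines) for the 777 intronic peaks in unique sequence (red), 502 intronic peaks in repeat sequence (blue) and 1347 exonic peaks in unique sequence (grey). The red points lie to the right of the blue ones for splice sites, gene starts and GC content, and to the left of the grey ones for score and GC content.

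More members than intronic repeat peaks lay near a splice site. The midpoint of 81 members (10.4%) was within 100 nt of a splice site of its intron, against 15 of 502 repeat peaks (2.99%, adjusted exact p = 1.5e-06, two-sided Fisher's exact test). Of all unmasked intronic bases of the same genes, 7.42% lie as close, which gives a ratio of 1.4. Among the 695 members with no base in an exon of any gene on the same strand, 45 (6.47%) were within 100 nt. Beside 7.27% of bases this gave a ratio of 0.891. The selection itself drops peaks that reach across a splice site, while the bases beside the site still count. The lower ratio therefore cannot show what the 1.4 rested on. Against repeat peaks with no base in such an exon (2.63%) the difference still passed Fisher's exact test (adjusted exact p = 0.00598). The classes of intronic peaks are split by masking alone, and the positions of masked bases in introns were not measured. The masking limit may therefore bear on these differences. The same holds below for gene starts, first introns, GC content and exons of other genes against repeat peaks. Within 50 nt there were 45 members (5.79%) beside 4.01% of bases, and within 500 nt 243 members (31.3%) beside 25% of bases. The host introns themselves had a median length of 9000 nt, and the median distance was 2824 nt from the 5′ site and 4350 nt from the 3′ site.

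The 45 members on the 3′ side had on average 61.4% C and U, against 50.6% for the 36 on the 5′ side and 54.5% for the 696 farther away. In all, 23 members ran across the 3′ splice site into the exon and 12 across the 5′ site. The following 3 peaks, chosen after their sequences were seen, show the tract of C and U and the AG at the end of the intron in lower case, with the exon in capitals.
Trpm1: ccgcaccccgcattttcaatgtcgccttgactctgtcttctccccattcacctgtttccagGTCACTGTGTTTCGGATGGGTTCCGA
Tysnd1: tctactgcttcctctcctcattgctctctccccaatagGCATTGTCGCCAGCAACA
Cars: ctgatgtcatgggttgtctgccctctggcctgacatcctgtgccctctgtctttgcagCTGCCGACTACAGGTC
The Trpm1 peak (chr7:64209896-64209982, score 4.75), in a cation channel gene, held 26 exon bases. The Tysnd1 peak (chr10:61701996-61702051, score 4.53), in the gene of a peroxisomal protease, held 18. The Cars peak (chr7:143592645-143592718, score 3.91), in a cysteinyl-tRNA synthetase gene, held 16. Scores of the 45 members on the 3′ side ran from 1.54 to 22.4, the highest being in Tnk2, a tyrosine kinase.

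**Figure D3:**
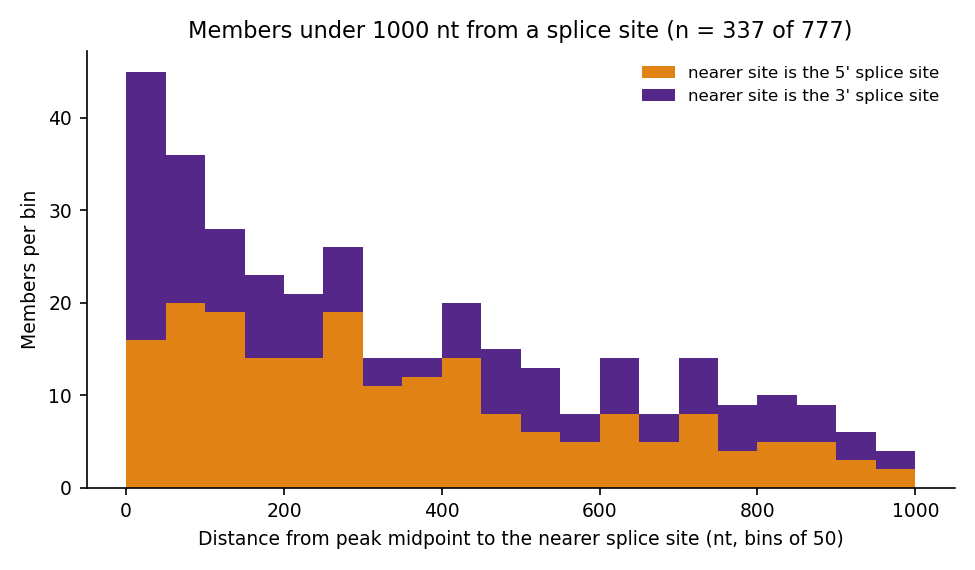
Number of members by distance of the midpoint from the nearer splice site, in bins of 50 nt, coloured by which site was nearer, for the 337 of 777 members under 1000 nt. The first bin held 45 members, the second 36, and each later bin between 4 and 28.

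Gene starts were also close to more members than the length of the introns gives. Within 1 kb of the gene start lay 62 members (7.98%), against 9 repeat peaks (1.79%, adjusted exact p = 2.47e-06), while 2.68% of the unmasked intronic bases of the same genes lie there. Of exonic peaks 303 (22.5%) lay there, but the rule keeps members out of the first exon, so this is no comparison. Of the 62 members, 58 were in the first intron and 40 (64.5%) had at least 60% GC, against 27.7% of the other 715 members. The first intron held 222 members (28.6%), against 100 repeat peaks (19.9%, adjusted exact p = 0.00136) and 24.6% of the unmasked intronic bases. With each interval counted once the members' share was 27.2%, with no exon base 26.6%, and without RefSeq exons 25.8%. Each still passed against repeat peaks, but the share of bases was not recomputed for these selections. The median member was 22953 nt from the gene start.

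Members were richer in G and C than the introns around them. Their mean GC content was 54.7%, while windows of the same length tiled over the unmasked introns of the same genes averaged 46.8%, and 623 members (80.2%) were above the mean of their own windows. A content of 60% or more was found in 238 members (30.6%), in 9.12% of windows, in 81 repeat peaks (16.1%, adjusted exact p = 2.6e-08) and in 593 exonic peaks (44%, adjusted exact p = 1.01e-08). On the transcript strand C made up 28.3% of member bases and 22.7% of window bases, and U 26.3% and 28.1%.

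Several hexamers were found more often in members than in their own windows, among them those of C and U. The windows were matched in length but not in base content, and whether base content sets these shares was not tested. CTCCTC was in 56 members (7.21%) and 2.7% of windows, CCCCTC in 49 (6.31%) and 2.44%, TCCTCC in 52 (6.69%) and 2.75%, and CCTCCT in 56 (7.21%) and 3.41%. These 4 motifs were first found in the whole list, which holds the members, so their ratios to the windows of 2.11 to 2.67 are a description. The motifs were not particular to members. In exonic peaks CTCCTC was found in 9.65%, CCCCTC in 9.5%, TCCTCC in 8.39% and CCTCCT in 9.73%. At least 1 of the 4 was in 130 members (16.7%), and the reverse complement of at least 1 in 88 (11.3%). CTCTCT was in 47 members (6.05%, windows 3.25%). The excess was not limited to C and U, since GGGGGG was in 21 members (2.7%) and 1.25% of windows, a ratio of 2.16. Members with 1 of the 4 were longer, with a median of 75 nt against 57 nt. The peaks in Tnk2 and Cul4b, a cullin of ubiquitin ligases, carry several of them, shown in capitals.
Tnk2: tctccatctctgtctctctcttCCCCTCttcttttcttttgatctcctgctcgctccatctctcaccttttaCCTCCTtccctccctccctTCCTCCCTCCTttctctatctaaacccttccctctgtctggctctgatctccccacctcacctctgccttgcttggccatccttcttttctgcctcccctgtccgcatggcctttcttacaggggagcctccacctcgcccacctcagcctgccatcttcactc
Cul4b: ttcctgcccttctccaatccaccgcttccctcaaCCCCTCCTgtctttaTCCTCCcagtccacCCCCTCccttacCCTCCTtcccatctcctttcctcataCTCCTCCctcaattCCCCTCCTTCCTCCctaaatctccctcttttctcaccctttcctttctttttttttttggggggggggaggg
The Tnk2 peak (chr16:32678456-32678710, score 22.4) had its midpoint 85 nt before the 3′ splice site of intron 17 and ran across it, so that its last bases, also in lower case, are exon, and the Cul4b peak (chrX:38574695-38574881, score 14.5) was chosen after its sequence was seen.

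Simple runs of bases are among the sequences that repeat masking removes, so motif shares in intronic repeat peaks are given as a description. CCTCCT and TCCTCC were in 13.5 and 12.2% of these peaks, TTTTTT in 20.7% (members 3.35%, windows 3.29%) and TGTGTG in 6.97% (members 3.22%, windows 4.64%). Against exonic peaks, CCCCTC (6.31 against 9.5%, adjusted exact p = 0.0231) and the polyadenylation signal AATAAA (0.901 against 2.75%, adjusted exact p = 0.00831) were less frequent. CCCCTC was first found in the whole list, which holds more exonic peaks (1347) than members (777). Its choice therefore bears on this difference, which is a description. The CCCCTC comparison did not pass in the top-scored 50% of the list or without peaks that have copies, and the AATAAA one did not pass in the former, with 1 peak per gene or with no masked base. No other motif passed against exonic peaks. The consensus 5′ splice site hexamers GTAAGT and GTGAGT were in 4 and 16 members (0.515 and 2.06%), beside 1.22 and 2.13% of windows. AGATCG, with which the Illumina adaptor begins, was in 8 members (1.03%) and 0.23% of windows, a ratio of 4.48. Among them were Atf2, Itga9 and Luzp1, which belong to 1 group of related sequences. Without members with copies it was in 5 of 675 (0.741%), beside 0.231% of windows, a ratio of 3.21. Exonic peaks held it in 1.19% of cases.

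At the mode, 223 members had C (28.7%), 213 G (27.4%), 208 U (26.8%) and 133 A (17.1%). U was more frequent there than in exonic peaks (20.6%, adjusted exact p = 0.00334) and C less frequent (34.9%, adjusted exact p = 0.00767), but neither passed in the top-scored 50% of the list (adjusted exact p = 0.109 and 0.0985). These shares were close to the make-up of the peaks themselves, in which C was 28.3%, G 26.4%, U 26.3% and A 18.9% of bases. For the 78 members with an equal peak on the opposite strand the base on the RNA is not known. For the 651 in no gene on the opposite strand it could not be checked.

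An intron of 1 gene can be an exon of another. An exon of a second gene on the same strand overlapped 52 members (6.69%), against 5 repeat peaks (0.996%, adjusted exact p = 1.1e-06). Among exonic peaks the share was 2.75% (37). An interval listed under 2 genes can be a member under 1 and an exonic peak under the other, so that share is a description. With each interval and strand counted once, 34 of 743 members (4.58%) and 28 of 1338 exonic peaks (2.09%) overlapped such an exon. An exon on the opposite strand overlapped 76 (9.78%), against 11 repeat peaks (2.19%, adjusted exact p = 1.62e-07) and 69 exonic peaks (5.12%, adjusted exact p = 0.000243). The highest pairs with equal intervals included Fam57b with Aldoa, a glycolytic enzyme (scores of 22.1 and 22.4), and Mettl23 with Srsf2, a splicing factor (15.6 and 15.3). For both, the partner on the opposite strand was an exonic peak. In another annotation, RefSeq, the midpoint of 100 members lay in an exon on the same strand.

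The comparison with exonic peaks on the opposite strand did not hold without the equal intervals (3.72 against 2.22%, adjusted exact p = 0.115). With the members in RefSeq exons left out, 3 of 677 overlapped an exon of a second gene on the same strand, a count that this selection itself lowers.

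MicroRNA genes on either strand overlapped 5 members. MicroRNAs are cut from hairpins in longer transcripts, many of them introns, and pair with target mRNAs through a seed, bases 2 to 8, shown in capitals in the RefSeq sequences (GRCm38.p6).
mmu-miR-196a-5p: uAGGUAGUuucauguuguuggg
mmu-miR-700-5p: uAAGGCUCcuuccugugcuugc
mmu-miR-23b-5p: gGGUUCCUggcaugcugauuu
mmu-miR-196a-2-3p: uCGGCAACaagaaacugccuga
Their seeds all differed. The Rcan3 peak (chr4:135416597-135416637, score 3.38) covered all 22 bases of miR-700-5p. The Hoxc5 peak (chr15:102973367-102973412, score 3.64), in a homeobox gene, covered 20 of 22 bases of miR-196a-5p and 12 of 22 of miR-196a-2-3p. The 2010111I01Rik peak (chr13:63300457-63300521, score 3.2) covered all 21 bases of miR-23b-5p, and the equal interval on the opposite strand was listed under Fancc, a Fanconi anaemia gene (score 3.22). The Mcm7 peak (chr5:138165811-138165911, score 4.95), in the gene of a replicative helicase subunit, reached only 8 of the 82 bases of the Mir106b hairpin and ran across a 5′ splice site of Mcm7. All 5 scores were at or below 4.95.

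Among the 647 host genes, 563 had 1 member, 62 had 2 and 22 had 3 or more. An exonic peak in unique sequence was also present in 82 of them (12.7%), which is 8.12% of the 1010 genes with such a peak. Gm20388 had the most, 15, with scores from 1.81 to 20.8, but its gene model spans 4434882 bases of chromosome 8 (chr8:119910841-124345722). Of its 15 members 8 overlapped exons of other genes on the same strand, among them Cox4i1, Rpl13, Ctu2 and Tubb3, and others lay opposite exons of Slc7a5, an amino acid transporter gene. None of the members of the next 4 genes overlapped an exon of another gene on the same strand.

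Grik3, a kainate receptor subunit, had 5 members in its first intron of 132535 nt, with scores of 7.27, 4.21, 4.13, 2.99 and 2.83. The highest lay 798 nt from the 5′ splice site. Cdh4, a cadherin, had 5 in intron 3, with scores from 2.36 to 3.68. Itpk1, an inositol phosphate kinase, had 5 in 5 introns, scored 1.66 to 4.54. Gli2, a transcription factor of Hedgehog signalling, had 5 in 3 introns, scored 2.69 to 3.48, of which the highest was 104 nt from the end of its first exon.

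**Figure D4:**
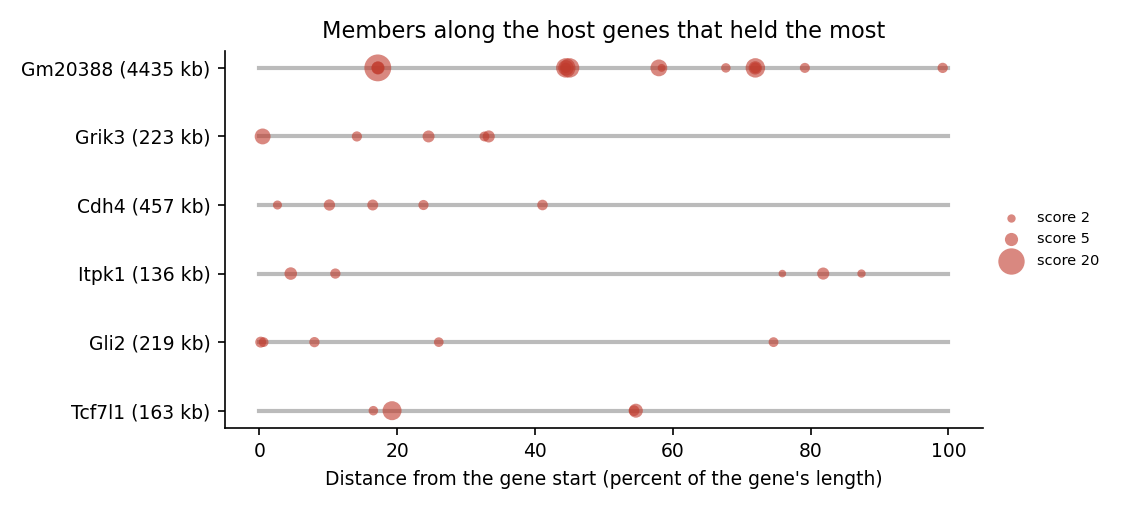
Position of members along the 6 host genes with the most, as percent of the gene's length from its start, with the area of each point in proportion to the score. The Grik3 and Cdh4 members sit toward the start of the gene, whereas those of Itpk1 lie near both ends.

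Genes of the chosen lists were next examined, each share set beside the 2.63% of all 22028 protein-coding genes (580) that held a member and the 4.43% (975) that held an exonic peak. These shares were not adjusted for gene length or expression, and they count members with other copies in the genome, such as the one in Jarid2. They also count Fgfr2 in the signalling list, although its gene model runs over other genes. The lists were chosen with earlier results of these data known. A member was found in 8 of 49 splicing factors (16.3%), 5 of 27 genes of RNA polymerase II transcription (18.5%), 4 of 22 of basement membrane and cytoskeletal linkers (18.2%), 4 of 29 histone lysine methyltransferases and demethylases (13.8%) and 4 of 30 pluripotency factors (13.3%). It was found in 3 of 29 genes of LIF, FGF and Wnt signalling (10.3%), 2 of 20 of cohesin and nuclear architecture (10%), 3 of 38 Polycomb genes (7.89%), 1 of 17 of DNA methylation (5.88%) and 1 of 37 chromatin remodellers (2.7%). In every list more genes held an exonic peak than a member, with the highest share, 50%, in basement membrane and cytoskeletal linkers.

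Among splicing factors the highest member was in Hnrnpk, an hnRNP protein that binds C-rich RNA (chr13:58401491-58401694, score 10.5), which ran from an intron of 222 nt across its 3′ splice site into the next exon, with its midpoint 21 nt before the site. Hnrnpf, which binds G-rich RNA, had a peak of 183 nt (score 8.36). Tra2b, an SR-like splicing activator, had one in its first intron (score 7.76), and Ddx17, an RNA helicase, one of 5.14. The remaining 4 were Hnrnpm, Ptbp2, Qk and U2af2.

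Among chromatin genes, Nsd1, an H3K36 methyltransferase, had a peak of 117 nt with 76.1% GC in its first intron (score 7.12). Setd2, Dot1l and Kmt2b, which methylate H3K36, H3K79 and H3K4, had scores of 3.58, 3.45 and 2.35. Besides Jarid2, the Polycomb list held the PRC1 subunits Phc1 and Phc2 (scores of 4.12 and 2.83). Mbd3 of the NuRD complex scored 2.89, and Arid1a of the BAF complex 3.08. Among genes of transcription, the corepressor gene Ncor1 scored 3.86, Aff1 of the super elongation complex 3.68, and Brd3, a bromodomain protein, 3.8. The 75-nt Brd3 peak matched an annotated RNA of the miscellaneous class at 74.4% identity, in an alignment of 82 positions with gaps included. Wapl, which releases cohesin, scored 3.42 and Rad21, a cohesin subunit, 2.74.

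In the pluripotency list Tcf7l1, a repressor of Wnt target genes, had 4 members, all in intron 3 of 13. Their scores were 10.4, 5.66, 3.3 and 2.6, and there were 2 exonic peaks besides. The peak of 5.66 had an equal interval on the opposite strand under Gm15402 (score 5.41), so its strand cannot be told. Zfp42 (Rex1) had 2 members (3.58 and 1.92), and Nr5a2 and Rif1 had 1 each (2.38 and 1.67). In the signalling list Map2k2, a MEK kinase and so a target of 1 of the 2i inhibitors, had a peak with its midpoint 88 nt from a 5′ splice site (score 5.07), and Fgfr1 scored 2.82. Fgfr2, whose gene model runs over other genes, had a second member of 4.59. An equal interval on the opposite strand was listed under Plekha1 (score 4.77), so the strand of this peak cannot be told. Macf1, a cytoskeletal linker, had 3 members (5.28, 3.4 and 3.3), of which the first and the last had 78.2 and 81.5% GC. Dst, a related linker, had 2 (3.68 and 2.77), Lama1, a laminin chain of the basement membrane, 2 (3.57 and 2.6), and Actn4, an actin crosslinker, 1 (3.29).

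**Figure D5:**
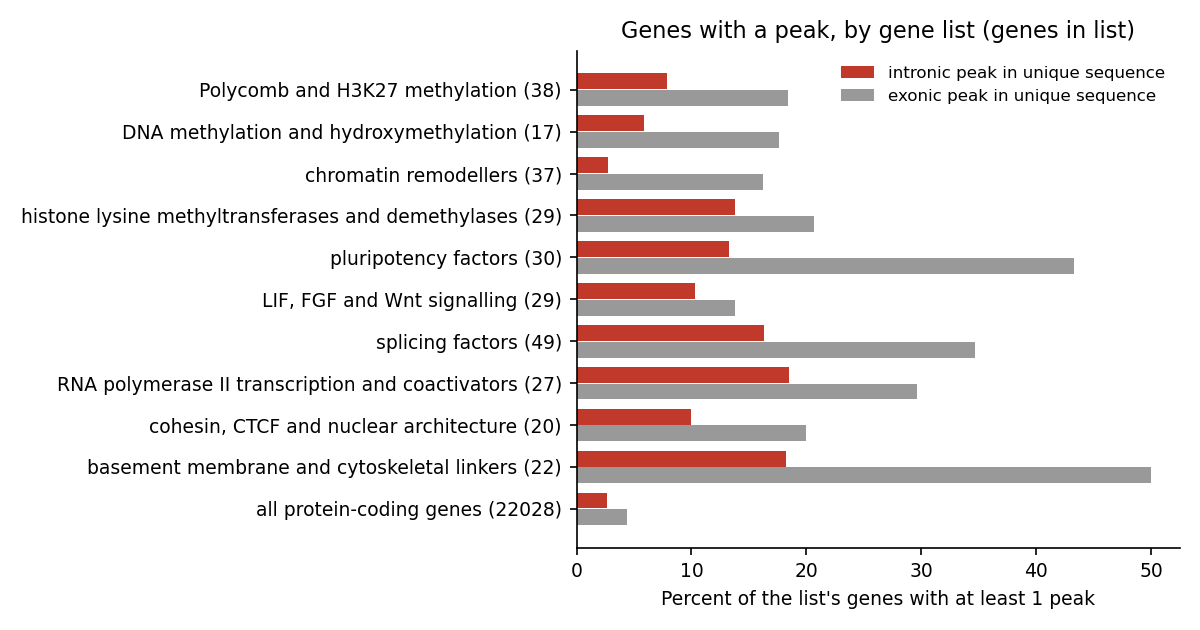
Percent of the genes of each list that held at least 1 intronic peak in unique sequence (red) or exonic peak in unique sequence (grey), with the number of genes in brackets. In all 10 lists the grey bar is longer than the red one, and the red bar is shortest for chromatin remodellers, at 2.7%, near the 2.63% of all protein-coding genes.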

How the data were processed

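iCLIP reads of 3 crosslinked and 3 background libraries were processed by the authors. Per the study's methods, reads were demultiplexed and trimmed with Flexbar, mapped to mm10 with STAR 2.6, deduplicated with UMI-tools 0.5.1 (versions from the submitters' processing notes) and peaks were called with omniCLIP on default settings. The authors deposited 1 peak list for all libraries with a score per peak, of unstated scale, and other columns that hold coordinates. Multimapping settings are not given in the sources used here.

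The members and gene lists were chosen with earlier results of these data known. Peaks were placed on GENCODE M21 genes (GRCm38.p6). Introns are the gaps between the merged exons of a gene, and their numbers follow that model. Masking is that of the RefSeq genome file. Copies, structural RNA and related members were searched with blastn 2.17.0. A structural match needed an E-value of 1e-05 over 50% of the peak, and members were related at 80% identity over 50% of the shorter peak. Motifs were searched on the transcript strand. Shares were compared with two-sided Fisher's exact tests (scipy 1.17.1) and adjusted by the Benjamini-Hochberg method over 49 tests. The tests were checked on simulated shares. Named are the 10 highest members, the 5 genes with the most members, up to 4 genes of each list (1 is not reported here) and every member at a microRNA gene, with others marked as chosen after their values were seen or as examples of a group. The Ccnb1ip1 sequence is not printed, as part of it is untranslated exon. Alternatives were a score limit, distinct intervals, 1 peak per gene, no masked base, no exon base, and other windows and limits.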

Additional observations from a re-analysis of the deposited data

How the results depend on the processing

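No paired analysis was possible because the list pools all 6 libraries, and for the same reason no library could be left out. Of 241 recomputed values, 215 had the direction and test outcome given in the report, or for counts were within 1.5 times of it. Values below are odds ratios, members over the other class, and their causes were not tested unless stated. With only the 50% of the list with the highest score, 290 members were left. Against exonic peaks the comparisons of length (0.702), U at the mode (1.39) and C at the mode (0.742) then no longer passed, and 0 motifs passed in place of 2 (Fisher's exact test, 1 at an unadjusted p under 0.05). Among these peaks, directions turned for copies (1.11) and, against repeat peaks, for C at the mode (1.14) and TGTGTG (1.03). With 1 peak per gene, U at the mode passed against repeat peaks (0.725) and C at the mode no longer passed against exonic peaks (0.805). With no soft-masked base, length against repeat peaks (1.29), U at the mode against exonic peaks (1.23) and structural RNA matches against exonic peaks (2.33) no longer passed, and U at the mode passed against repeat peaks (0.671). With each interval once, C at the mode against repeat peaks turned to 1.01, and copies at 80% identity over 80% of the peak turned to 1.01. The last 3 alternatives were chosen after seeing the data. Without peaks that have copies, U at the mode passed against repeat peaks (0.74) and 1 motif passed against exonic peaks. Without equal intervals on the opposite strand, exons of another gene on that strand no longer differed from exonic peaks past the threshold (1.7). Without RefSeq exons, same-strand exons of another gene gave 1.02 against repeat peaks and 0.181 against exonic peaks, which follows from its construction, since it leaves out nearly the peaks being counted and leaves exonic peaks whole. AATAAA no longer passed against exonic peaks with 1 peak per gene (0.408) or with no soft-masked base (0.263). Copies among intronic repeat peaks were not run.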
